A study of Homo sapiens with 20 samples.

Results

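The regions described here are stretches of H3K4me3 that lie in the chromosome bands next to the centromeres and in the bands of variable heterochromatin. Peaks of 10 libraries on chromosomes 1 to 22 and X were merged where they lay within 1000 bp. A merged region was kept when its midpoint fell in a band whose stain in the hg19 cytoband table is acen (the band flanking a centromere), gvar (heterochromatin of variable size) or stalk (the stalks of the acrocentric short arms). The rule used positions alone and no peak strength. It kept 622 of 31428 regions, or 1.98% of all regions, while the bands take up 7.39% of the chromosome length. Of these, 479 lay in acen bands, 68 in the gvar bands of chromosome 19, 75 in other gvar bands and 0 in stalks, and 38 of the 67 bands held a region.

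The study profiled WM164, a melanoma cell line with mutant BRAF, by chromatin immunoprecipitation and sequencing of 50 bp single reads. Colony cells were kept in 50 nM dabrafenib, a BRAF inhibitor, for 45 days, and resistant cells for more than 90 days, with the drug renewed every 3 days. Parental cells received the corresponding volume of DMSO for 3 days. A second pair of groups overexpressed NRAS Q61K, an activated form of the GTPase that signals upstream of the RAF kinases, or GFP as the control protein, both on the same BRAF-mutant background and with no drug named. Each group had 2 H3K4me3 libraries, and the 10 input libraries were not analysed here. All groups derive from 1 cell line, and the labels used here do not describe the vector or promoter of the transgenes. They also do not say whether the paired libraries of a group were separate cultures. The p-values therefore reflect the spread between libraries only, and that spread may be technical.

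H3K4me3 is the trimethylation of lysine 4 of histone H3 and is known chiefly as a mark of promoters in use. Centromeres are built on long arrays of alpha satellite repeats and are flanked by other satellites and by recently duplicated segments, a setting better known for the repressive mark on lysine 9 of the same histone. A short read from a repeat cannot be placed uniquely, so pile-ups of reads beside centromeres are a familiar feature of such libraries. The bands 19p12 and 19q12 carry the gvar stain but hold assembled sequence, and 19p12 is known for clusters of KRAB zinc finger genes, which encode repressors that bind transposable elements. Only band names and hg19 positions are given for the regions, since no gene annotation of that build was at hand.

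The peak lists differed between groups over the whole genome. They held 21408 and 21573 peaks in colony libraries, 19401 and 19111 in resistant libraries, 29258 and 30065 in parental libraries, 40648 and 37649 in NRAS Q61K libraries and 41806 and 45376 in GFP libraries. The shortest peak measured 255 to 284 bp in the drug-exposed libraries, 180 and 202 bp in parental libraries and 142 to 153 bp in the transgene libraries. The lists give no read counts, so the sequencing depth is unknown. List length and shortest peak moved together with the groups and their part in the results cannot be told apart from the treatment.

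Most of the regions were short and weakly enriched, and many were seen once. Their median length was 556 bp, against 1157 bp for the 30806 regions outside the bands. The short length lay in acen bands, at 452 bp, while it was 1532 bp in the gvar bands of chromosome 19 and 1207 bp in other gvar bands. A peak in all 10 libraries was present at 121 of them (19.5%), against 38.8% outside, and 220 (35.4%) had a peak in 1 library alone, against 26.1% outside. By class, the share with a peak in 1 library alone was 38.2% in acen bands, 30.9% in the gvar bands of chromosome 19 and 21.3% in other gvar bands. The second GFP library held 132 of the 220. NRAS Q61K libraries held 29 and 25 of them, the first GFP library 18, colony libraries 0 and 6, resistant libraries 1 and 0 and parental libraries 3 and 6. At least 2 libraries marked 402 regions (64.6%), and those entered the tests between groups.

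Within every library the band regions were narrower, lower and more broken up than the rest of the genome. The median covered length of a marked region averaged 1223 ± 553 bp in the bands and 2127 ± 382 bp outside (SD, n = 10 libraries). The difference of -905 bp had the same sign in 10 of 10 libraries (range -1297 to -550; exact two-sided sign permutation test over libraries, p = 0.00195, the smallest it can give, adjusted p = 0.00195 over 3 measures). The test flips single libraries, though they come from 5 groups with 2 libraries each. Its p-values here and below therefore do not measure the spread between groups. The median of the authors' highest fold in a region, the ratio of the peak summit to its local background, was 2.23 on the log2 scale in the bands and 3.28 outside, a difference of -1.05 with the same p. Peaks per covered kb came to 1.15 in the bands and 0.705 outside, again in 10 of 10 libraries with the same p. The classes differed, without a test. Group means of the median highest fold, not logged, were 8.33 to 10.2 in the gvar bands of chromosome 19 and 9.38 to 10 outside. They were 3.15 to 6.96 in acen bands and 3.41 to 7.32 in other gvar bands. Peaks per covered kb in other gvar bands lay below those outside in colony libraries (0.516 and 0.447 against 0.53 and 0.519) and above them in the other groups. Replicates overlapped a little less well in the bands: the Jaccard index of covered bases between the libraries of a group ranged over the 5 groups from 0.706 in GFP to 0.818 in resistant cells, against 0.792 to 0.839 outside, with no test. It was lowest in acen bands, at 0.742 on average, and reached 0.798 in the gvar bands of chromosome 19 and 0.843 in other gvar bands.

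A smaller share of the H3K4me3-covered bases lay in the bands in drug-exposed cells. The share was 1.17% and 1.14% in colony libraries, 0.888% and 0.879% in resistant libraries, 1.30% and 1.34% in parental libraries, 1.11% and 1.19% in NRAS Q61K libraries and 1.23% and 1.48% in GFP libraries. Resistant libraries lay below all 8 others, and colony libraries lay below parental and GFP libraries but overlapped with NRAS Q61K. The 4 drug-exposed libraries averaged 1.02 ± 0.157% and the 6 unexposed ones 1.27 ± 0.131%, a difference of -0.255 percentage points (SD; exact two-sided permutation test, p = 0.0286, adjusted p = 0.0429 over 3 band classes). The test exchanges single libraries, though they come from 5 groups with 2 libraries each. Its p-values therefore do not measure the spread between groups under the same exposure. Most of the difference lay in acen bands, with 0.67% in drug-exposed and 0.905% in unexposed libraries (difference -0.235 percentage points, exact permutation p = 0.0238, adjusted p = 0.0429). In gvar bands the shares were 0.349% and 0.369% in drug-exposed and unexposed libraries, and the test was not passed (exact permutation p = 0.252). This call did not hold with lists of equal length, where the difference was -0.0993 percentage points (exact permutation, adjusted p = 0.471), nor when peaks under a −log10 q of 10 were dropped, where it was -0.126 (adjusted p = 0.286). It was also lost when any of 8 of the libraries was left out, with differences of -0.305 to -0.209 percentage points over the 10 omissions, and it held without colony 1 (exact permutation, adjusted p = 0.0357) and without NRAS Q61K 1 (adjusted p = 0.0119).

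**Figure D1:**
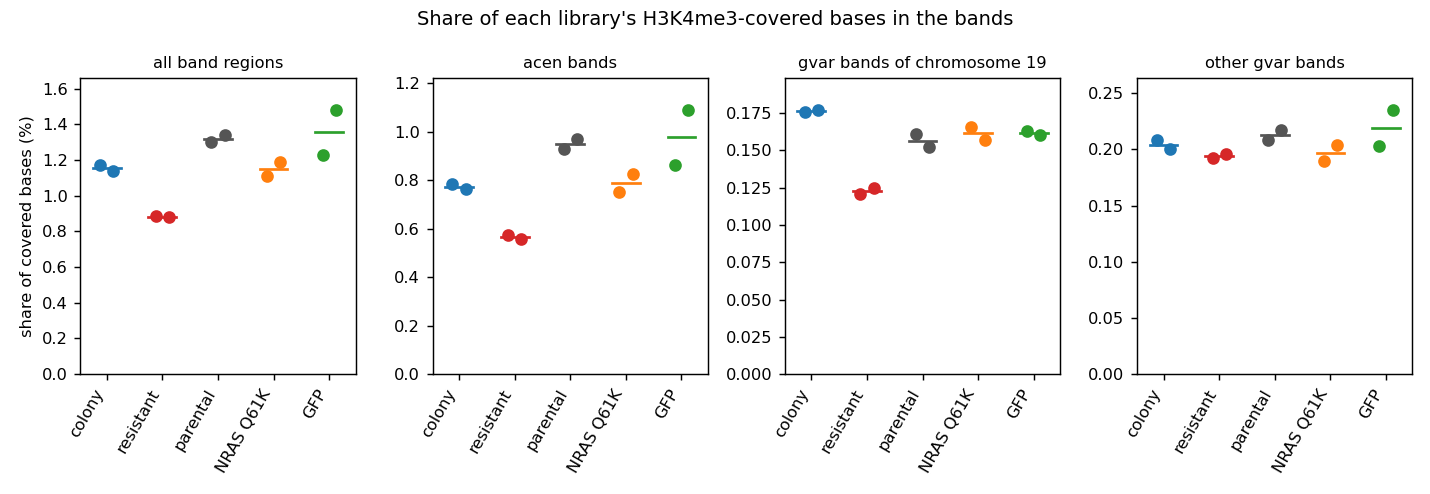
Share of each library's covered bases that lies in the bands (y axis, percent), by group (x axis). Points are libraries and lines are group means of 2. Resistant libraries, at 0.888% and 0.879% over all bands, sit lowest, and the gap is present in acen bands and in the gvar bands of chromosome 19.

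The bases behind these shares fell unevenly over the bands. Band regions covered 470 and 472 kb in colony libraries, 312 and 300 kb in resistant libraries, 588 and 544 kb in parental libraries, 537 and 530 kb in NRAS Q61K libraries and 576 and 693 kb in GFP libraries. In 4p11 the covered length was 42.3 and 36.1 kb in colony libraries, 17.7 and 19.1 kb in resistant libraries, and 72.2 and 65.2 kb in parental libraries. The transgene libraries resembled parental cells there, with 55.7 and 59 kb in NRAS Q61K and 61.3 and 79 kb in GFP. In band 19p12 the resistant libraries stood below all others. It held 36.4 and 38.3 kb in colony libraries, 14.1 and 15.7 kb in resistant libraries and 36.2 and 29.9 kb in parental libraries, and 40.1 and 34.7 kb in NRAS Q61K and 39.9 and 39.4 kb in GFP libraries. Its neighbour 19q12 spread less, at 34.5 and 34.9 kb in colony, 28.3 and 26.8 kb in resistant and 36.6 and 32 kb in parental libraries. The most even of the large bands was 3q11.2, with 11.6 to 14.4 kb in every library.

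The 10 broadest band regions fell into a low and a high class of enrichment. Of these, 8 had a mean fold of 2.7 or less, and 2 at 3p11.1 had the high folds of strong H3K4me3 peaks. The broadest lay at 16q11.2 (chr16:46385810-46414571) and covered 24093 and 24000 bp in colony, 20256 and 21141 bp in resistant, 25174 and 25056 bp in parental, 22597 and 23399 bp in NRAS Q61K and 23968 and 26082 bp in GFP libraries, at a mean fold of 2.4. Each library covered at least 20256 bp of it, and no comparison called a change. The next, at 2p11.1 (chr2:92305215-92326189), covered 17014 and 17794 bp in colony, 13757 and 13271 bp in resistant, 16844 and 17642 bp in parental, 13967 and 15083 bp in NRAS Q61K and 15546 and 17497 bp in GFP libraries. It was also not called in any comparison.

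Other broad regions differed several-fold between groups of the same line. At 4p11 (chr4:49118557-49158673) peaks covered 9976 and 7925 bp in colony libraries, 1095 and 1676 bp in resistant libraries, 20981 and 20857 bp in parental libraries, 15994 and 18625 bp in NRAS Q61K libraries and 18170 and 24140 bp in GFP libraries. The 3 untreated or DMSO groups overlapped or adjoined each other, and both drug groups lay below them. On the log2(bp + 200) scale the change was -1.24 ± 0.22 in colony over parental cells (SE; limma, adjusted p = 0.00514) and -3.56 ± 0.22 in resistant over parental cells (adjusted p = 2.09e-05). A region of 2p11.1 (chr2:91595109-91616085) had 6043 and 4011 bp in colony libraries, no peak in either resistant library, 13025 and 10730 bp in parental libraries, 8890 and 10273 bp in NRAS Q61K libraries and 10460 and 14386 bp in GFP libraries. It was called lower in colony (change -1.26 ± 0.21, adjusted p = 0.00451) and in resistant cells (adjusted p = 2.29e-06), where no change is given because the resistant libraries were empty.

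The second segment of 16q11.2 (chr16:46416502-46429387), beside the broadest region of all, covered 10288 and 10292 bp in colony, 6220 and 5885 bp in resistant, 11649 and 11486 bp in parental, 9155 and 10189 bp in NRAS Q61K and 10538 and 11734 bp in GFP libraries. It was called narrower in resistant than in parental cells (change -0.72 ± 0.09, adjusted p = 5.43e-04), unlike its neighbour, so adjacent stretches of one band gave different calls. Chromosome 8 showed a fall on both sides of its centromere. At 8q11.1 (chr8:46838937-46856445) the covered length was 11017 and 11732 bp in colony, 3091 and 3513 bp in resistant, 12915 and 13224 bp in parental, 5198 and 7289 bp in NRAS Q61K and 11237 and 13339 bp in GFP libraries. Resistant cells differed from parental cells by -1.73 ± 0.17 (adjusted p = 2.11e-04) and NRAS Q61K from GFP cells by -0.92 ± 0.17 (adjusted p = 0.0167), both on the log2(bp + 200) scale. The second call was lost without NRAS Q61K 1 (adjusted p = 0.0933) or GFP 2 (0.118) and in a fit of the transgene libraries alone (0.108). At 8p11.1 (chr8:43820834-43838888) the resistant libraries covered 3826 and 1258 bp and the parental ones 14172 and 13858 bp (change -2.36 ± 0.39, adjusted p = 0.00273). NRAS Q61K libraries covered 5465 and 6268 bp there and GFP libraries 10710 and 14356 bp, which did not pass the test (change -1.01 ± 0.39, adjusted p = 0.212).

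At 17p11.1 (chr17:22244613-22262887) NRAS Q61K and resistant cells were low alike. The region covered 8481 and 7250 bp in colony, 1976 and 2372 bp in resistant, 14275 and 14331 bp in parental, 1235 and 2949 bp in NRAS Q61K and 10553 and 13733 bp in GFP libraries. The change was -2.42 ± 0.34 in resistant over parental cells (adjusted p = 0.00122) and -2.48 ± 0.34 in NRAS Q61K over GFP cells (adjusted p = 0.00658; 0.0779 in a fit of the transgene libraries alone), while colony over parental cells did not pass (change -0.88 ± 0.34, adjusted p = 0.12). The high-fold region of 3p11.1 (chr3:89153599-89166724, mean fold 11.8) had its low values in colony cells. It covered 7970 and 7228 bp in colony, 11177 and 10599 bp in resistant and 10717 and 10412 bp in parental libraries, so both colony libraries lay below the other drug-exposed and parental ones (colony over parental -0.49 ± 0.06, adjusted p = 8.15e-04; resistant over colony 0.73 ± 0.06, adjusted p = 6.62e-05). Resistant over parental cells were called wider there by a small amount (change 0.24 ± 0.06, adjusted p = 0.0175), a call that was lost without centring (0.642), without resistant 1 (0.095), without resistant 2 (0.0555) and without parental 1 (0.0968). The other, chr3:88104710-88113235 with a mean fold of 17.5, covered 5189 to 7372 bp over the 10 libraries and was not called.

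**Figure D2:**
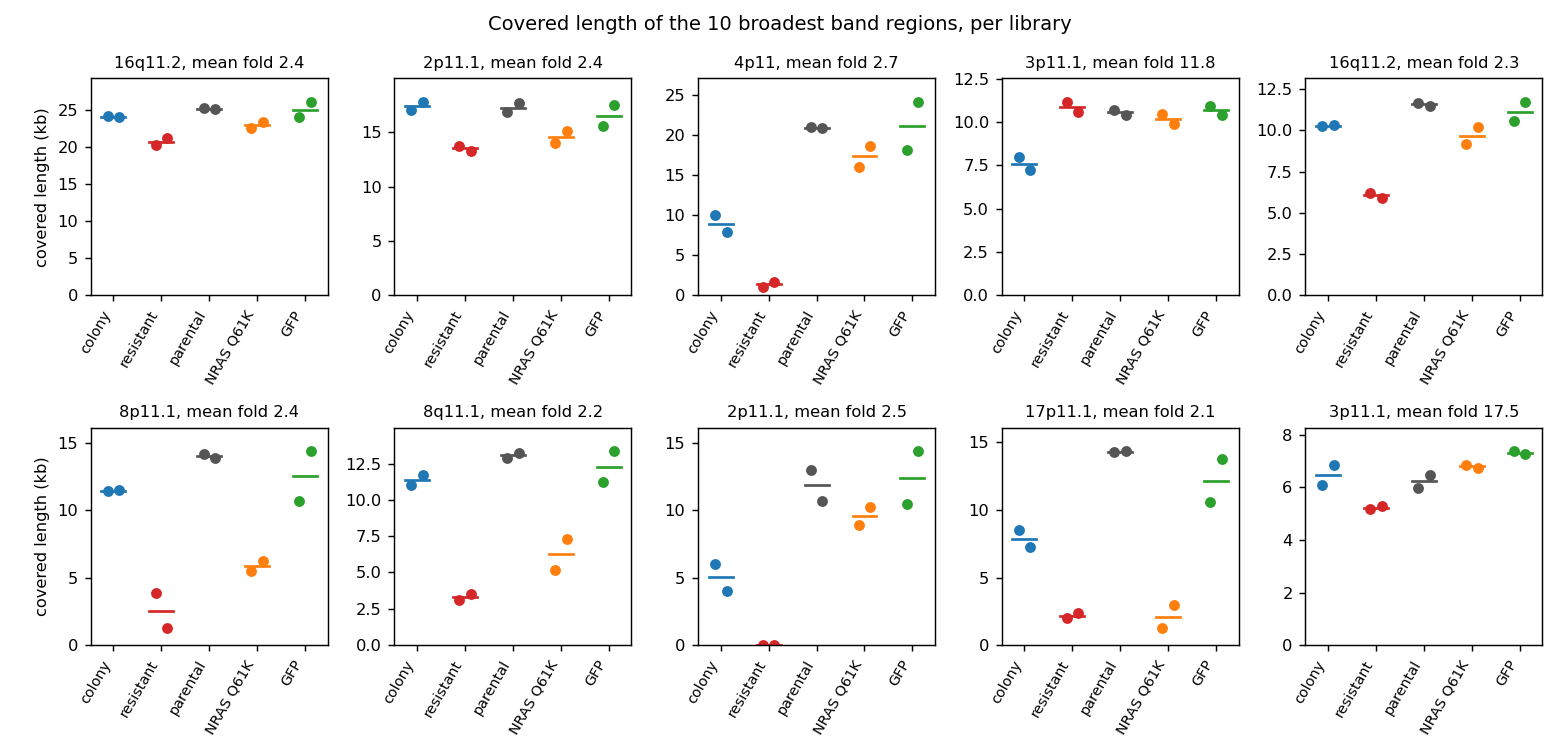
Covered length (y axis, kb) of the 10 band regions with the highest mean covered length, by group (x axis). Points are libraries, lines are means of 2, and the mean of the authors' fold stands above each panel. The widest region, at 16q11.2, covers 20256 bp or more in every library, while 4p11, 8p11.1, 8q11.1, 17p11.1 and a region of 2p11.1 drop to 3.83 kb or less in resistant cells.

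Breadth without height was largely a property of the bands and their edges. Over the tested regions the median of the mean fold was 3.37 in the bands and 7.28 outside, and 46.5% of band regions but 2.96% of the others had a mean fold below 3. Regions with a mean fold below 3 that still averaged at least 2000 bp numbered 24 in the whole genome, a definition chosen after the values were seen and given without a test. The bands held 17 of them among 84 broad band regions, and the 7 outside, of 9549 broad regions, all lay within 631 kb of a band boundary, at 1p11.2, 2p11.2, 7q11.21 and 10q11.21. Such regions covered 130 and 122 kb in the bands in colony libraries, 65.9 and 64.6 kb in resistant libraries, 187 and 184 kb in parental libraries, 116 and 133 kb in NRAS Q61K libraries and 157 and 201 kb in GFP libraries. The highest −log10 q that such a band region reached in any library, as the authors' lists give it, ran from 11.1 at Xp11.1 to 61.8 at 6p11.1, with a median of 35.8 over the 17. In single libraries it went down to 2.48, and at the widest 16q11.2 region it was 23 to 52.2.

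**Figure D3:**
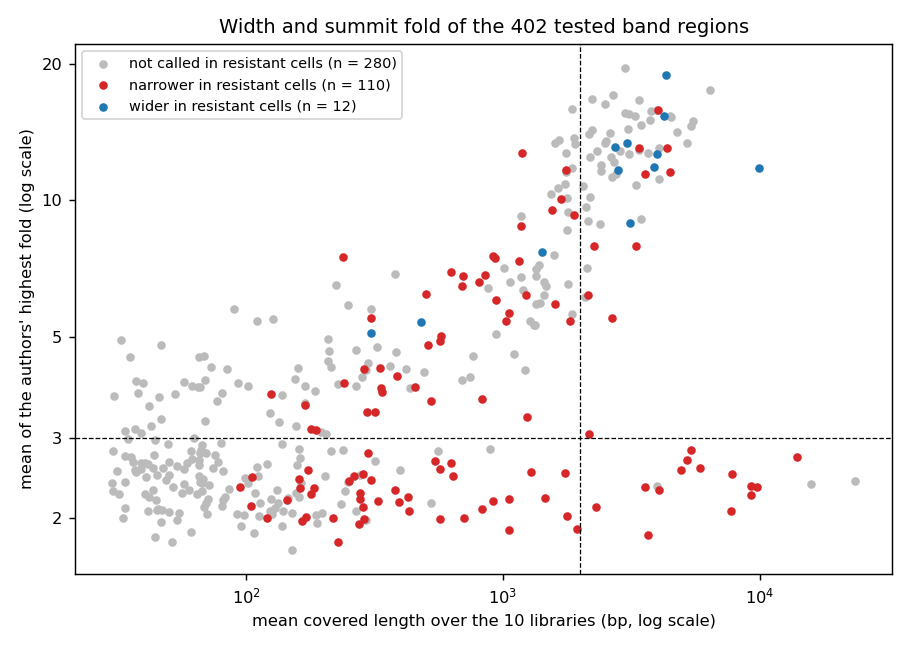
Mean of the authors' highest fold (y axis, log scale) against mean covered length (x axis, bp, log scale) for the 402 tested band regions, coloured by the limma call in resistant over parental cells. Dashed lines mark a fold of 3 and 2000 bp. One arm climbs to high fold with breadth, and a separate arm at a fold below 3 runs out to 23577 bp. It holds 14 narrower calls among the 17 regions past both lines. Of the 7 such regions outside the bands, not drawn, 5 were also narrower, and 20.6% of all tested regions were.

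Colony cells had 17 band regions wider and 66 narrower than parental cells, of 402 tested (4.23% and 16.4%; limma, adjusted p under 0.05 over 23153 regions). Over all regions tested, 4.29% were wider and 16.7% narrower, so the bands stood at the background share in both directions. The median change was -0.0555 in the bands and -0.0505 over all regions (log2). The wider count was 10 without colony 1, 7 without colony 2 and 11 without parental 2. Of the 235 band regions marked in both parental libraries, 59 had no peak in either colony library (25.1%), against 15.6% of all such regions. Gained regions, unmarked in both parental libraries and marked in both colony libraries, numbered 6 of 310 (1.94%), against 1.71% of all. With 1 library of a group left out, the lost count was 93 without parental 1 and 89 without parental 2, and the gained count 16 without colony 1. The lost counts then had a larger base, as parental 2 marked 272 band regions and parental 1 marked 275.

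The losses in colony cells sat largely in regions that were weak in parental cells to begin with. In the quartile of regions with the lowest parental −log10 q, 60.4% of band regions and 55.6% of all regions were lost, and in the next quartile 5.13% and 6.2%. The bands held 91 of their 235 regions in that weakest quartile. A row of 4 regions on the long-arm side of the X centromere was narrower in colony cells. The one at chr X, 61708733 to 61721218 (Xq11.1), covered 287 and 299 bp in colony libraries and 4119 and 5222 bp in parental libraries (change -3.32 ± 0.46, adjusted p = 0.00168). Its neighbour from 61694081 to 61700841 had no peak in either colony library and 2441 and 1824 bp in parental libraries (adjusted p = 9.52e-04).

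Among the named regions, 3 were empty in colony libraries and marked in the 8 others. At 19q12 (chr19:31069125-31071207) colony libraries had no peak, resistant libraries covered 1521 and 1182 bp and parental libraries 1672 and 1603 bp, with 1637 to 2083 bp in the transgene libraries (colony over parental, adjusted p = 6.84e-06; resistant over colony, adjusted p = 4.70e-06). At 3p11.1 (chr3:89265112-89267191) colony libraries were likewise empty, resistant libraries covered 1004 and 1286 bp and parental libraries 1842 and 1929 bp (colony over parental, adjusted p = 6.23e-06). At 22q11.1 (chr22:17304834-17306641) colony libraries were empty, against 967 and 775 bp in resistant and 1198 and 1206 bp in parental libraries (colony over parental, adjusted p = 1.86e-05). Resistant cells, exposed to the drug for longer, carried peaks at all 3 positions.

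Several named regions were wider in colony than in parental cells, with or without peaks in other groups. The 19q12 region chr19:29373728-29378934 covered 4836 and 4838 bp in colony libraries, nothing in resistant libraries, 1033 and 531 bp in parental libraries, 577 and 0 bp in NRAS Q61K libraries and nothing in GFP libraries. It was called wider in colony over parental cells (change 2.38 ± 0.53, adjusted p = 0.0148), a call that was lost with a pseudocount of 50 bp (adjusted p = 0.133) and without colony 1 (0.0603), colony 2 (0.0536) or parental 2 (0.0848). A region of 22q11.1 (chr22:16334653-16337494) covered 2369 and 2368 bp in colony libraries, nothing in resistant libraries, 202 and 0 bp in parental libraries, 867 and 697 bp in NRAS Q61K libraries and 0 and 426 bp in GFP libraries (colony over parental 3.15 ± 0.51, adjusted p = 0.00359). In the zinc finger band 19p12, chr19:21751092-21752876 covered 518 and 1565 bp in colony libraries and nothing in the other 8. That region entered the test through the colony libraries alone, so no p-value is given. At 10p11.1 (chr10:38144077-38147795) a region marked in all 10 libraries was broader in both drug groups, with 3598 and 3719 bp in colony, 2909 and 2572 bp in resistant and 2344 and 2241 bp in parental libraries (colony change 0.6 ± 0.08, adjusted p = 0.00115; resistant change 0.43 ± 0.08, adjusted p = 0.00428, and 0.0919 without centring). Resistant and colony cells were not called apart there (adjusted p = 0.18). Of these regions, the one at 19p12 was marked in colony libraries and in no other.

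Resistant cells had 12 band regions wider and 110 narrower than parental cells (2.99% and 27.4% of 402). Over all regions 7.93% were wider and 20.6% narrower, and the median change was -0.308 in the bands and -0.0678 over all regions. Narrower calls made up 26.4% of the tested acen regions (78 of 296), 36.2% of those in the gvar bands of chromosome 19 (17 of 47, with 0 wider) and 15 of 59 in other gvar bands. The regions covered in all 10 libraries were themselves shorter in resistant cells, and centring removed a shift of -0.187 and -0.218 (log2) from the resistant libraries. Without it the bands had 3 regions wider and 144 narrower of 402, against 882 and 7279 of all 23153. Leaving out resistant 1 or resistant 2 gave 4 and 7 wider regions, and the narrower count stayed between 74 and 97 over the omissions.

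Loss in resistant cells reached 96 of 235 band regions marked in both parental libraries (40.9%), against 22% of all such regions, and gain reached 2 of 310 (0.645%), against 4.63% of all. The bands hold more weak regions than the genome does, and within the weakest parental quartile 86.8% of band regions and 76.1% of all regions were lost. In the second quartile the shares were 19.2% and 11.4%. None of these shares was tested. Regions marked in all 6 unexposed libraries and in no drug-exposed library numbered 35 of the 622 (5.63%), against 1474 of all 31428 (4.69%). The reverse pattern, a peak in all 4 drug-exposed libraries and in no unexposed one, was rare everywhere, with 0 of the 622 and 16 of all regions (0.0509%).

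**Figure D4:**
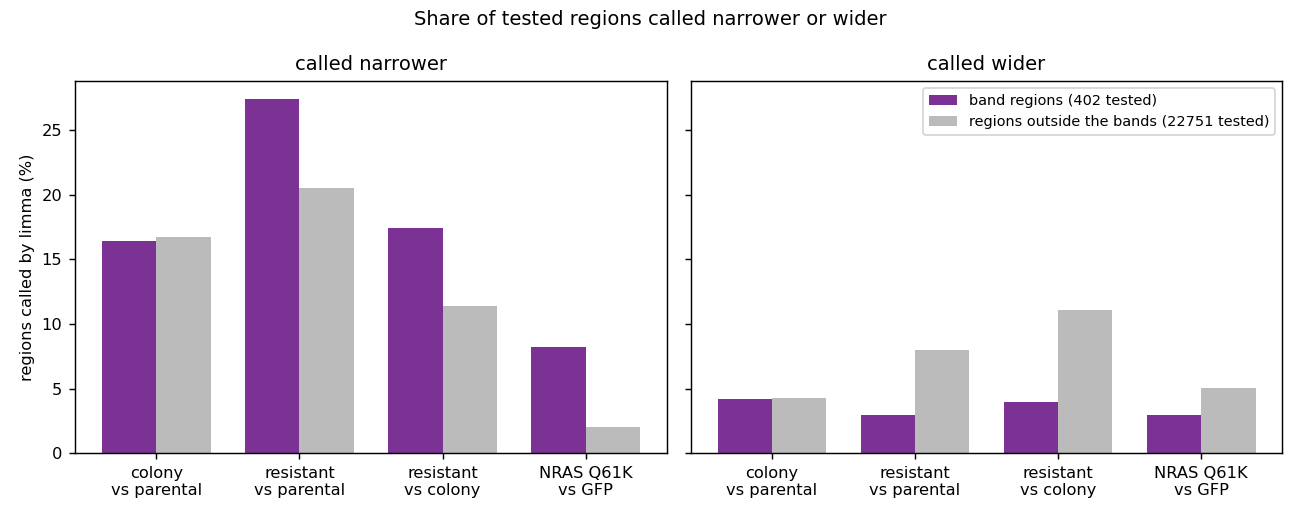
Percentage of tested regions (y axis) that limma called narrower (left) or wider (right) in each comparison (x axis), for the 402 band regions and the 22751 regions outside the bands. Band regions exceed the others in narrower calls in resistant over parental (27.4%), resistant over colony (17.4%) and NRAS Q61K over GFP cells (8.21%), and fall short in wider calls in the same comparisons.

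Regions without a peak in resistant cells included broad ones with high or middling folds. At 16p11.1 (chr16:34709099-34715433, mean fold 13.0) coverage was 6058 and 5895 bp in colony libraries, nothing in either resistant library, 5303 and 5602 bp in parental libraries, 5183 and 5098 bp in NRAS Q61K libraries and 5351 and 5041 bp in GFP libraries. The 8 other libraries all covered 5041 to 6058 bp, and the resistant ones were empty (resistant over parental, adjusted p = 5.27e-08; resistant over colony, adjusted p = 2.58e-08). At 21p11.1 (chr21:11096952-11101442, mean fold 5.51) coverage was 4338 and 4201 bp in colony libraries, nothing in resistant libraries, 3036 and 2364 bp in parental libraries, 3296 and 3233 bp in NRAS Q61K libraries and 3036 and 3124 bp in GFP libraries. There colony cells were above parental cells (change 0.61 ± 0.1, adjusted p = 0.00346) and resistant cells below (adjusted p = 3.98e-07).

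The zinc finger band 19p12 held 3 further named peaks that only the resistant libraries lacked. The first, chr19:20958798-20960706 with a mean fold of 12.7, covered 1436 and 1559 bp in colony, nothing in resistant, 1522 and 1181 bp in parental, 1295 and 1270 bp in NRAS Q61K and 1904 and 1726 bp in GFP libraries (resistant over parental, adjusted p = 9.46e-06). The second, chr19:21105932-21107483 with a mean fold of 7.56, covered 1130 and 1083 bp in colony libraries, nothing in resistant libraries and 1043 and 1126 bp in parental libraries (adjusted p = 2.47e-05). The third, chr19:23455610-23457710 with a mean fold of 6.03, covered 1732 and 1916 bp in colony libraries, nothing in resistant libraries and 949 and 530 bp in parental libraries (resistant over parental, adjusted p = 2.95e-04). All 3 were empty in both resistant libraries and marked in the 8 others.

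A few band regions were broader in resistant cells. At 22q11.1 (chr22:17601405-17603062) resistant libraries covered 1394 and 1658 bp, and the other 8 libraries had no peak. It entered the test through the resistant libraries alone, so no p-value is given. At 3q11.2 (chr3:96531575-96533516) colony libraries covered 561 and 422 bp, resistant libraries 1942 and 1659 bp and parental libraries nothing, while of the transgene libraries NRAS Q61K 1 covered 217 bp and the rest nothing. Both drug groups were called wider there (colony adjusted p = 0.00678, resistant adjusted p = 1.53e-04). A neighbour in the same band, chr3:94174394-94175790, was empty in all 4 drug-exposed libraries, and it covered 1212 and 950 bp in parental, 1163 and 975 bp in NRAS Q61K and 1221 and 737 bp in GFP libraries (colony adjusted p = 2.02e-04, resistant adjusted p = 1.94e-04). At 16q11.2 (chr16:46916722-46921737) resistant libraries covered 4628 and 4345 bp and parental libraries 3820 and 3687 bp (change 0.44 ± 0.07, adjusted p = 0.00292).

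Colony and resistant cells were set against the same parental libraries, so the overlap of their calls is not given. Set directly against colony cells, resistant cells had 16 band regions wider and 70 narrower (3.98% and 17.4% of 402), against 11% wider and 11.5% narrower over all regions tested. The median change was 0.222 in the bands and 0.167 over all regions. The median lies above 0 in part by construction, since a region empty in both groups takes the value 0.22 from the centring. Narrower calls reached 18 of 47 regions in the gvar bands of chromosome 19 (38.3%). Of the 167 band regions marked in both colony libraries, 32 had no peak in resistant cells (19.2%, against 8.19% of all), and 4 of 417 were gained (0.959%, against 5.18%). The lost count was 53 without colony 1, when the base grew to the 189 band regions marked in colony 2. Among regions with a mean fold of 6 or more, 29.8% of band regions and 14% of all regions were narrower in resistant than in colony cells, so strong peaks took part in this difference. At 5q11.1 (chr5:49735172-49737803) the direction was opposite, with 2052 and 2415 bp in resistant libraries against 850 and 293 bp in colony libraries (change 1.98 ± 0.35, adjusted p = 0.0046).

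NRAS Q61K cells had 12 band regions wider and 33 narrower than GFP cells (2.99% and 8.21% of 402). Over all regions the balance ran the other way, with 5.06% wider and 2.18% narrower. Acen bands supplied 28 of the narrower calls, other gvar bands 5 and the gvar bands of chromosome 19 none, where 4 regions were wider. These counts rested on single libraries: without NRAS Q61K 1 there were 0 wider and 3 narrower, without NRAS Q61K 2 there were 1 and 7, without GFP 1 there were 12 and 21, and without GFP 2 there were 20 and 7. The balance thus turned without GFP 2, with 20 wider and 7 narrower of 344 band regions against 964 and 72 of all 22143. When the 4 transgene libraries were fitted alone, 1 band region was wider and 3 were narrower of 373, against 122 and 10 of all 21556. The second GFP library, which held 132 of the 220 regions seen once, had peaks at 502 band regions, against 338 in GFP 1 and 327 and 337 in the NRAS Q61K libraries.

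Losses in NRAS Q61K cells came to 40 of the 309 band regions marked in both GFP libraries (12.9%), against 3.18% of all, and 35 of them lay in acen bands. They were weak regions, since 39 belonged to the quartile with the lowest −log10 q in GFP cells, in which 30.5% of band regions and 12.6% of all regions were lost. Gains came to 11 of 91 (12.1%), against 15.5% of all. The lost count was 189 without GFP 1, when GFP 2 alone stood for its group and the base grew to its 502 marked band regions. The gained count was 37 without NRAS Q61K 1, 44 without NRAS Q61K 2 and 27 without GFP 2. At 22q11.1 (chr22:16683132-16687004) NRAS Q61K libraries had no peak and GFP libraries covered 1197 and 1290 bp, with none in the drug-exposed or parental libraries. In the opposite direction, 13q11 (chr13:19477689-19479190) had 1093 and 1042 bp in NRAS Q61K libraries and nothing in GFP or any other library. Both regions entered the test only through the group that has them, so no p-value is given for either. At 8q11.1 (chr8:47527409-47529882) NRAS Q61K libraries covered 1886 and 1694 bp and GFP libraries 906 and 881 bp (change 0.91 ± 0.11, adjusted p = 0.00394; 0.0595 without NRAS Q61K 1 and 0.0669 in a fit of the transgene libraries alone), while resistant libraries covered 1743 and 1716 bp and parental ones 1511 and 1329 bp.

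A set of broad acen regions was narrower in both resistant and NRAS Q61K cells. At Xp11.1 (chromosome X, 58563746 to 58581829) peaks covered 1630 and 1732 bp in colony, 316 and 0 bp in resistant, 9203 and 6866 bp in parental, 176 and 1101 bp in NRAS Q61K and 4929 and 10791 bp in GFP libraries. Resistant over parental cells changed by -4.47 ± 0.65 (adjusted p = 0.00153) and NRAS Q61K over GFP cells by -3.38 ± 0.65 (adjusted p = 0.019), the second being lost without NRAS Q61K 1 (adjusted p = 0.127) or GFP 2 (0.135), with a pseudocount of 50 bp (0.101) and in the separate fit (0.0991). Colony over parental cells did not pass there (change -2.14 ± 0.65, adjusted p = 0.0533). At 5q11.1 (chr5:49429144-49441616) they covered 956 and 872 bp in colony, 514 and 0 bp in resistant, 4545 and 6146 bp in parental, 253 and 323 bp in NRAS Q61K and 3172 and 6196 bp in GFP libraries. The change was -3.66 ± 0.55 in resistant over parental cells (adjusted p = 0.00169) and -3.21 ± 0.55 in NRAS Q61K over GFP cells (adjusted p = 0.0125), lost without NRAS Q61K 1 (adjusted p = 0.12), NRAS Q61K 2 (0.0995) or GFP 2 (0.0837) and with a pseudocount of 50 bp (0.0897). Colony over parental cells changed by -2.33 ± 0.55 (adjusted p = 0.0186), a call that was lost in each of the 4 omissions of a colony or parental library (adjusted p = 0.0612 to 0.104). In both regions each NRAS Q61K library lay below each GFP library, and each drug-exposed library below each parental one.

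Xq11.1 carried 4 regions in a row that were called narrower in colony and resistant over parental cells and in NRAS Q61K over GFP cells. The one from 61685087 to 61692871 covered 314 and 299 bp in colony, nothing in resistant, 2389 and 2523 bp in parental, 213 and 167 bp in NRAS Q61K and 1916 and 2729 bp in GFP libraries (colony adjusted p = 1.93e-04, resistant 1.96e-05, NRAS Q61K over GFP 0.00135). The NRAS Q61K calls of the other 3 were less stable. That of the region starting at 61694081 (adjusted p = 0.0063) was lost in the separate fit (0.0799) and without NRAS Q61K 1 (0.0704) or NRAS Q61K 2 (0.065). That of the region starting at 61701844 (adjusted p = 0.012) was lost in the separate fit (0.103) and without NRAS Q61K 1 (0.109) or NRAS Q61K 2 (0.0512). That of the region starting at 61708733 (adjusted p = 0.018) was lost in the separate fit (0.0672), without NRAS Q61K 1 (0.145), NRAS Q61K 2 (0.0855) or GFP 2 (0.129), and with a pseudocount of 50 bp (0.14). The whole of Xq11.1 came to 9.81 and 10.9 kb in colony libraries, 6.29 and 6.04 kb in resistant libraries, 21.1 and 21.2 kb in parental libraries, 11 and 10.4 kb in NRAS Q61K libraries and 18.3 and 27.5 kb in GFP libraries. Regions this close together are not independent of each other.

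The changes in resistant and NRAS Q61K cells come from separate libraries and can be set against each other. Band regions narrower in both numbered 13, of which 12 lay in acen bands, and these were 11.8% of the 110 narrower in resistant cells and 39.4% of the 33 narrower in NRAS Q61K cells. Over all regions tested, 100 were narrower in both, 2.09% of the 4779 narrower in resistant and 19.8% of the 504 narrower in NRAS Q61K cells. These shares depend on how often each call was made. In NRAS Q61K cells 8.21% of band regions and 2.18% of all were narrower, in resistant cells 27.4% and 20.6%. The NRAS Q61K calls in the bands were themselves unstable, with 3 narrower in the separate fit. Of the 402 band regions 0 were called in opposite directions, against 207 of all 23153 regions. The bands had only 12 wider calls in each comparison, too few for the 0 to be read as agreement. Across the 402 regions the log2 changes had Pearson's r of 0.25 and Spearman's rho of 0.163, against 0.0731 and 0.0564 outside the bands, given as a description since regions are not independent. The difference of the changes, NRAS Q61K over GFP minus resistant over parental, was above 0 in 73 band regions and below 0 in 24 (18.2% and 5.97%; limma), with 17.5% and 5.54% over all regions. Leaving out single libraries gave 44 to 70 above, the fewest without resistant 2, and 2 to 31 below, with 2 without GFP 2, 4 without either resistant library and 9 without GFP 1.

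**Figure D5:**
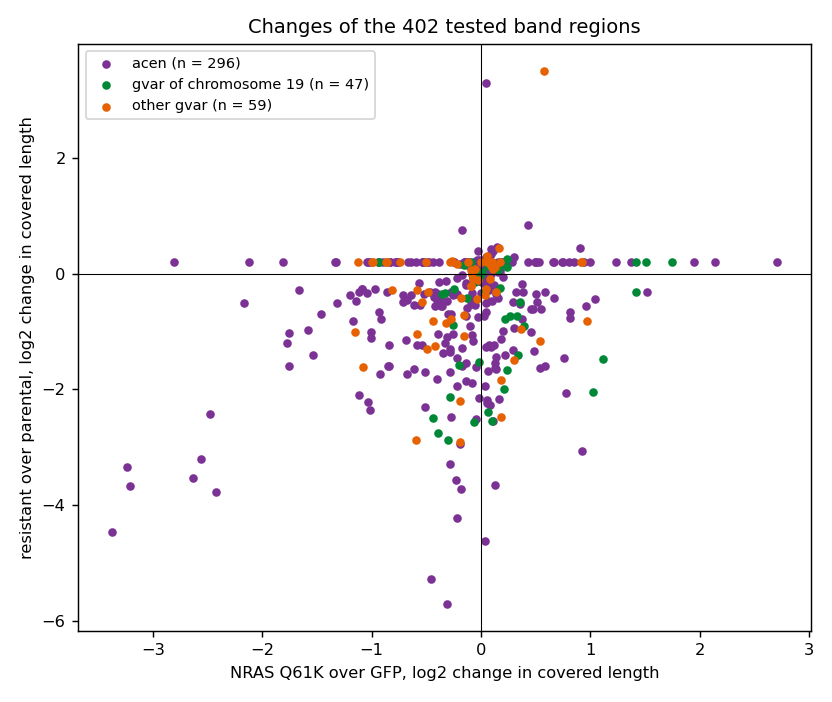
Log2 change in covered length of the 402 tested band regions in resistant over parental cells (y axis) against NRAS Q61K over GFP cells (x axis), coloured by band class. The points at the lower left include the acen regions of Xq11.1, Xp11.1, 5q11.1 and 17p11.1 and, nearer the centre, 21p11.2 in another gvar band, and the row of points just above 0 are regions empty in resistant and parental libraries.

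Some band regions were marked in every library, which did not mean a constant width. In a fit of regions present in all 10 libraries, 26 of 121 band regions were narrower and 11 wider in resistant over parental cells. Over all 12087 such regions, 1572 were narrower and 1137 wider (limma, adjusted p under 0.05). The 121 regions marked in all 10 libraries had a median mean fold of 10.8 and a median mean covered length of 2418 bp, against 13 and 2926 bp for the 11966 such regions outside. Their highest summit stayed within a median range of 653 bp over the libraries, against 628 bp outside, and 14% moved by more than 2000 bp, against 6.86% outside. The highest fold, 19.6 on average, belonged to 20p11.1 (chr20:25988181-25993076), which covered 3644 and 3481 bp in colony, 2772 and 2542 bp in resistant, 2789 and 3138 bp in parental, 2911 and 3163 bp in NRAS Q61K and 2601 and 2919 bp in GFP libraries and was not called. Next came 5q11.1 (chr5:49961155-49966622) with a mean fold of 18.9, which covered 3728 to 4870 bp over the libraries and was wider in resistant than in parental cells (change 0.39 ± 0.08, adjusted p = 0.00788), a call that was lost without centring (0.128), without resistant 1 (0.0505) and without parental 1 (0.0519). At 19q12 (chr19:29702109-29705039) a region of fold 17.1 covered 2473 to 2931 bp in every library, and at 3q11.1 (chr3:93698420-93701481) one of fold 16.7 covered 1500 to 2665 bp, with no call for either.

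The edge of the rule passed through ordinary regions on both sides. The 3 members nearest a band boundary lay at 17p11.1 (chr17:22202834-22203366), 20p11.1 (chr20:25602205-25606525) and 5p11 (chr5:46105212-46105374), and covered 0 to 490 bp, 3263 to 4156 bp and 163 bp in 1 library. The 3 nearest regions left out lay at 2p11.2 (chr2:90499829-90500159), 3q12.1 (chr3:98302866-98304872) and 8p11.21 (chr8:43094655-43096121), with at most 331, 675 and 1032 bp in any library.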

How the data were processed

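The authors deposited 1 peak list for each of the 10 H3K4me3 libraries, called per library. MACS2 2.1.2, deepTools 2.5.4, BWA and SAMtools and the builds GRCh37 and hg19 are named in the submitters' processing notes, without their roles. The deposited fold of a peak is its enrichment over local background at the summit, the deposited −log10 q-value belongs to the same summit, and the deposited score is 10 times that −log10 q in 99.996% of peaks. These are the authors' values, used here to describe and filter. Whether inputs served as controls is not stated. Peaks on other sequences (589 of 306884) were left out.

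Covered length per region was analysed as log2(bp + 200), centred on the median over regions covered in all 10 libraries, for the 23153 regions marked in at least 2 libraries. Group means were fitted with limma 3.58.1 in R 4.3.3 (eBayes with trend, Benjamini-Hochberg adjustment within each comparison, threshold 0.05). Band stains came from circlize 0.4.16. Shares and widths were compared by exact permutation of libraries in scipy 1.17.1. Lost and gained regions were counted, not tested. A region marked in a single group passed the filter only through the group where it is high, so the call on it depends on the filter. The fit was tested on simulated data.

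The regions, band classes and comparisons were chosen with earlier results of these data known. Named regions are the largest calls in each direction, the strongest gained and lost regions, the broadest, the highest by fold and those nearest the rule's boundary, in all 62.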

Additional observations from a re-analysis of the deposited data

Results flagged for a closer look

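The share of covered bases in gvar bands was 0.395% in the second GFP library, which stood apart from the other 5 unexposed libraries, the lowest of which had 0.355%. The gap to its nearest neighbour took up 0.641 of the range of the 6, above the critical value of 0.625. Such a gap is found by chance in about 1 group in 20. The same library held 132 of the 220 band regions seen in 1 library alone.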

How the results depend on the processing

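The width, fold and peak density differences between bands and outside kept their direction and passed their tests under every setting. Leaving out 1 library gave -944 to -861 bp, -1.13 to -1 and 0.42 to 0.475. The balance of calls in NRAS Q61K over GFP cells turned without GFP 2, with 20 wider and 7 narrower. The settings that follow change the number of regions tested, so counts are given beside those over all regions. When peaks under a −log10 q of 10 were dropped, 222 band regions of 15637 in all were tested. Wider and narrower ones numbered 7 and 28 in colony over parental cells (515 and 1546 of all). Narrower ones numbered 58 in resistant over parental and 42 in resistant over colony cells (2057 and 1534 of all). There were 6 and 13 in NRAS Q61K over GFP cells (547 and 113 of all) and 31 and 11 in the difference of changes (1864 and 590 of all). With lists of equal length, 252 band regions of 17066 in all were tested. Of them 25 and 60 were narrower in colony and resistant over parental cells (1580 and 2276 of all). In NRAS Q61K over GFP cells 3 were wider and 11 narrower (520 and 122 of all), and the difference gave 34 and 10 (1833 and 999 of all). With only overlapping peaks merged, which splits regions, 749 band regions of 29649 in all were tested. Narrower ones numbered 137 and 242 in colony and resistant over parental cells and 110 in resistant over colony cells (4083, 5192 and 2953 of all). In NRAS Q61K over GFP cells 22 were wider and 83 narrower (1591 and 1242 of all), and the difference gave 141 and 56 (4929 and 2121 of all). Among regions present in all 10 libraries, 121 in the bands and 12087 in all, 8 were wider and 11 narrower in colony over parental cells (736 and 1231 of all). Narrower ones numbered 26 and 37 in resistant over parental and over colony cells (1572 and 1839 of all). There were 1 and 2 in NRAS Q61K over GFP cells (208 and 26 of all) and 16 and 1 in the difference (958 and 324 of all). Without centring 3 of 402 were wider in resistant over parental cells (882 of all 23153). A pseudocount of 1000 bp left 14 of 402 narrower in NRAS Q61K over GFP cells (197 of all 23153). The separate fit left 1 wider and 3 narrower of 373 (122 and 10 of all 21556). Single omissions gave 7 to 14 wider and 60 to 65 narrower in colony over parental cells, 4 to 9 and 74 to 97 in resistant over parental, 13 to 17 and 52 to 65 in resistant over colony, 0 to 20 and 3 to 21 in NRAS Q61K over GFP cells, and 44 to 70 above and 2 to 31 below 0 in the difference. The causes were not tested.

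The drug-exposed share of covered bases in bands lost its call with strict peaks (-0.126 percentage points), with equal lists (-0.0993) and against parental libraries alone (-0.3, where 4 against 2 libraries cannot reach the threshold), and ranged over -0.305 to -0.209 over the omissions. Among the called changes of named regions, 42 values lost their call under the settings that keep all libraries, 16 of these in the separate fit. Another 66 lost it when 1 library was left out, most often NRAS Q61K 1 (11). Kept calls are not counted against these. Taking bands by any overlap, or without the gvar bands of chromosome 19, reuses the same fit and cannot change a call. With the replicate block, colony over parental cells had 15 wider and 69 narrower, resistant over parental 12 and 115, resistant over colony 14 and 69, NRAS Q61K over GFP 11 and 35, and the difference 68 and 23. Deviations of samples with the same number had correlations of -0.021 to 0.029 over all regions and -0.060 to 0.153 over the band regions, the highest in NRAS Q61K over GFP cells. With 2 libraries a group and no shared source in the labels, the numbers were not taken as pairs. Depth is unknown, and an unmarked region may be one that fell below the caller's threshold.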

Other observations

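Several bands held H3K4me3 in some groups and none in others. In 7q11.1 peaks covered 0.938 and 1 kb in colony libraries, none in either resistant library, 2.18 and 2.03 kb in parental libraries, 1.26 and 1.56 kb in NRAS Q61K libraries and 1.87 and 4.29 kb in GFP libraries. Bands 14q11.1 and 6q11.1 were likewise empty in both resistant libraries and marked in the 8 others. Bands 5p11 and 12q11 were empty in all 4 drug-exposed libraries and marked in the 6 others, at 0.24 to 3.02 kb and 0.366 to 2.32 kb. In 12p11.1 NRAS Q61K cells had the highest values, with 11.5 and 9.21 kb, against 5.09 and 8.23 kb in GFP libraries. That band held 2 regions called wider in NRAS Q61K cells, chr12:34486347-34486996 and chr12:34515840-34516933. They covered 650 and 454 bp and 1027 and 895 bp in NRAS Q61K libraries, against 0 and 0 bp and 0 and 167 bp in GFP libraries. The first had no peak in any other group, and the second had one elsewhere only in GFP 2. Both passed the filter of 2 libraries only through the NRAS Q61K libraries, so no p-value is given for either. Both calls were lost in a fit of the 4 transgene libraries alone, and the second also without NRAS Q61K 1 or NRAS Q61K 2.

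Band 16p11.1 held 10.4 and 10.4 kb in colony libraries, 0.636 and 0.596 kb in resistant libraries and 11 and 11.1 kb in parental libraries. In 3p11.1 colony and resistant libraries were both low, with 23.1 to 24.4 kb and 23.8 and 23.7 kb, against 35.6 and 34.9 kb in parental libraries, but the regions behind this differed, as the peak at chr3:89265112-89267191 was empty in colony libraries and marked in resistant ones. These sums over bands were not tested.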
